A study of Mus musculus with 32 samples.

Results

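The cells described here were the hematopoietic progenitors of the fetal liver, defined as hematopoietic liver cells with low *Fcer1g* that did not have both *Alas2* and *Slc4a1* high. They were the cells that the study assigned to its hematopoietic major group (HC) and to the liver, with *Fcer1g* below 3 and without both *Alas2* and *Slc4a1* at 3 or more, on the log2(TPM/10 + 1) scale of the study. *Fcer1g* encodes a signalling chain of Fc receptors found in myeloid cells, *Alas2* the erythroid enzyme that starts heme synthesis, and *Slc4a1* the anion exchanger of the red cell membrane. The rule named 102 of the 249 hematopoietic cells and of the 1916 cells in all. Because 2 of the columns were identical to another column, 100 distinct progenitors remained among 246 distinct hematopoietic cells, of which 178 came from the liver and 68 from other organs. The other liver cells of the group are called erythroid cells here when both *Alas2* and *Slc4a1* were at 3 or more and *Fcer1g* was below 3 (36 cells), and Fcer1g-high cells when *Fcer1g* was at 3 or more (42 cells).

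The study sequenced single cells, picked with a mouth pipette, from 8 organs of C57BL/6J mouse embryos between embryonic day (E) 9.5 and E11.5. No embryo carried a transgene or a treatment. Hematopoietic liver cells came from 5 embryos: E9.5 embryo 3, sequenced in 1 library that pooled lung and liver, E10.5 embryos 1 and 2, which shared 1 library, and E11.5 embryos 1 and 2, which shared another. The livers of E9.5 embryo 1 and embryo 2 gave no cell of the hematopoietic group. Day and library can therefore not be told apart, and the embryo was taken as the replicate, with 1 embryo at E9.5 and 2 at each later day.

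The fetal liver is the main site of blood formation before the bone marrow takes over. Progenitors that arise in the yolk sac and in the arteries of the embryo seed it, expand there, and give rise to definitive red cells, megakaryocytes, and myeloid cells. On the way to the red cell, *Kit* and other receptors of early progenitors are lost, the factors *Gata1* and *Klf1* switch on the genes for heme synthesis, the membrane skeleton, and blood group proteins, and globin comes last. The red cells that circulate in the embryo at these days are made in the yolk sac, and carry the embryonic globins *Hba-x*, *Hbb-y*, and *Hbb-bh1*.

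The progenitors held between 28884 and 1767843 unique molecular identifiers (UMIs, single counted transcripts) per cell, with a median of 547072, and between 2886 and 9054 genes. Embryo medians ran from 390808 UMIs in E11.5 embryo 1 to 763793 in E9.5 embryo 3. No cell name occurred in more than 1 library. The 3 liver libraries with hematopoietic cells were labelled male, yet the progenitors of E10.5 embryo 1 had a mean of 3.07 for *Xist* and of 0.12 for the Y-linked *Ddx3y*, whereas the other 4 embryos had at most 0.38 for *Xist* and at least 0.90 for *Ddx3y*. The sex label of the E10.5 library thus went against the RNA of 1 of its 2 embryos. For E11.5 against E10.5, calls of named genes that were lost without that embryo are given beside them. Progenitors carried RNA of hepatoblasts, the epithelial liver cells: *Afp*, a fetal plasma protein, was at 1 or more in 100 of 100 progenitors, with embryo means from 2.77 to 3.61, against 9.85 to 11.10 in the epithelial liver cells (EC in the study). In the progenitors, 0 of the 17 tested hepatoblast genes were called between E10.5 and E11.5. Since 0.937% of all genes tested were called, this count cannot show that hepatoblast RNA was even between embryos. *Alb* means ran from 0.09 in E9.5 embryo 3 to 1.56 in E11.5 embryo 2. Summed over the hepatoblast list, the mean TPM of progenitors was 1667 in E11.5 embryo 2 and 220 in E11.5 embryo 1. In the embryos of E9.5 and E10.5 it ran from 217 to 482. The part of this RNA in the results below was not tested.

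The 4 genes given as markers of these cells were checked first, counting a cell as expressing a gene at 1 or more on the log2 scale. The background was taken from 22 epithelial liver cells of the same libraries, with a median depth of 546644 UMIs, close to the 547072 of the progenitors. *Bcl11a*, a repressor of embryonic and fetal globin genes, was expressed in 98 of 100 progenitors and in 1 of 22 epithelial cells. *Adgrg1*, an adhesion receptor also named GPR56, was expressed in 96 and in 4. *Kit*, the receptor for stem cell factor, was expressed in 76 and in 1, and *Itga2b*, the alpha chain of the fibrinogen receptor CD41, in 53 and in 1. All 4 markers were expressed in 43 progenitors, 3 in 37, and 2 in 20, and no cell had fewer. The markers were not particular to these cells among the hematopoietic liver cells. *Bcl11a* had a mean of 3.86 ± 0.27 in progenitors and 1.58 ± 1.19 in erythroid cells (SD, n = 5 embryos). Single erythroid cells had up to 4.79 for *Bcl11a* and up to 4.03 for *Adgrg1*. *Adgrg1* and *Itga2b* were also expressed in most Fcer1g-high cells, as given below.

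Other genes of stem and progenitor cells divided sharply. *Lmo2*, a bridging factor of early hematopoiesis, was expressed in 100 of 100 progenitors, *Ikzf1* in 91, *Gfi1b* in 91, *Myb* in 78, *Runx1* in 61, and *Gata2* in 21. *Cd34* was expressed in 2, *Ptprc*, the pan-leukocyte antigen CD45, in 3, and *Cd93* in 1. *Mecom*, *Hoxa9*, *Ly6a*, *Slamf1*, *Procr*, *Flt3*, *Il7r*, and *Cxcr4* reached 1 in 0 of 100 cells, which allows a share of up to 3% of cells at this level, and is no limit on cells that express the genes below what the depth can show. By contrast *Gata1*, *Klf1*, *Car2*, *Blvrb*, *Smim1*, and *Cited4*, which mark the erythroid path, were each expressed in 100 of 100 cells, and *Epor*, the erythropoietin receptor, in 99. Of the 22 epithelial cells *Gata1* was found in 2, *Klf1* in 7, *Smim1* in 7, *Cited4* in 8, *Car2* in 16, *Blvrb* in 17, and *Epor* in 1. The markers given for the cells were thus present, the surface genes of stem cells and *Ptprc* were detected in few cells or none at this depth, and the erythroid factors were in every cell. "Progenitors" is used below as a short name for the cells of the rule.

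**Figure D1:**
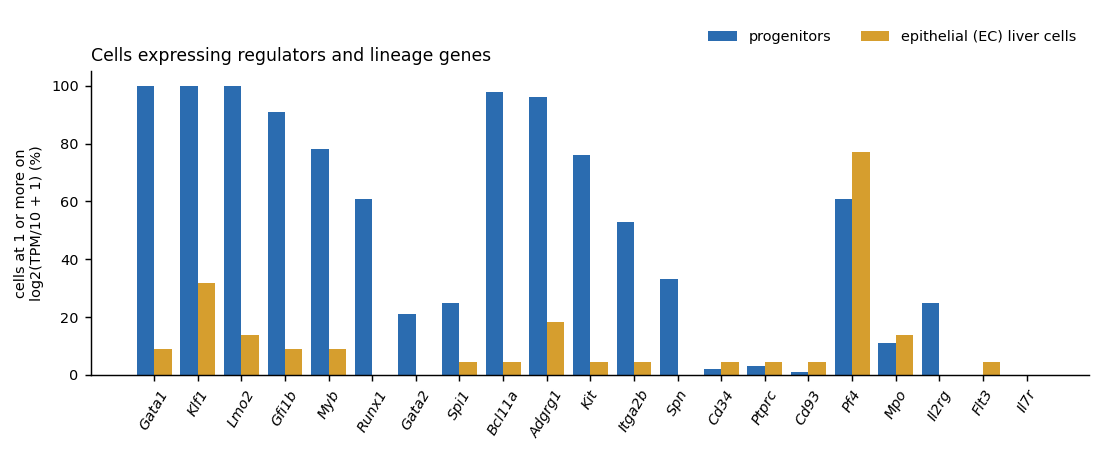
Share of cells (%) at 1 or more on the log2(TPM/10 + 1) scale for regulators and lineage genes, in 100 progenitors (blue) and 22 epithelial liver cells of the same libraries (yellow). *Gata1* and *Klf1* stand at 100% in progenitors, *Cd34*, *Ptprc*, and *Cd93* below 4%, and *Pf4* is more frequent in the epithelial cells than in the progenitors.

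Genes of other blood lineages were mostly rare or no more frequent than in the epithelial cells. *Pf4*, a megakaryocyte chemokine, was expressed in 61 of 100 progenitors but in 17 of 22 epithelial cells. *Mpo*, the myeloperoxidase of granulocyte precursors, was expressed in 11 progenitors and in 3 of 22 epithelial cells. These pooled shares were not matched by embryo. E9.5 embryo 3 gave 9 of the 22 epithelial cells and 5 of the 100 progenitors, and E11.5 embryo 1 gave 0 and 13. *Prtn3*, a granule protease, was expressed in 33 progenitors against 1 of 22, *Spi1*, the master factor of myeloid cells, in 25 against 1, and *Gp9*, a platelet glycoprotein, in 25 against 0. *Elane*, *Ctsg*, and *Cpa3* reached 1 in 0 cells. Since every progenitor expressed *Klf1*, the 25 cells with *Spi1* and the 21 with *Gata2* expressed both. *Kit* and *Itga2b* were found together in 44 cells, *Kit* without *Itga2b* in 32, *Itga2b* without *Kit* in 9, and neither in 15.

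The number of progenitors differed between embryos of the same day. Of the hematopoietic liver cells, 5 of 15 were progenitors in E9.5 embryo 3. At E10.5 they were 22 of 40 in embryo 1 and 33 of 41 in embryo 2, and at E11.5 they were 13 of 42 and 27 of 40. These are shares of 33.3% (95% Wilson interval 15.2 to 58.3), 55.0% (39.8 to 69.3), 80.5% (66.0 to 89.8), 31.0% (19.1 to 46.0), and 67.5% (52.0 to 79.9). The intervals cover counting error only. The intervals of the 2 embryos of E11.5 did not overlap, and E11.5 embryo 1 held 23 of the 36 erythroid cells. Because the cells were picked by hand, the shares are those of the cells collected. With 2 embryos against 2, an exact permutation test cannot pass 0.05, and none was run.

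**Figure D2:**
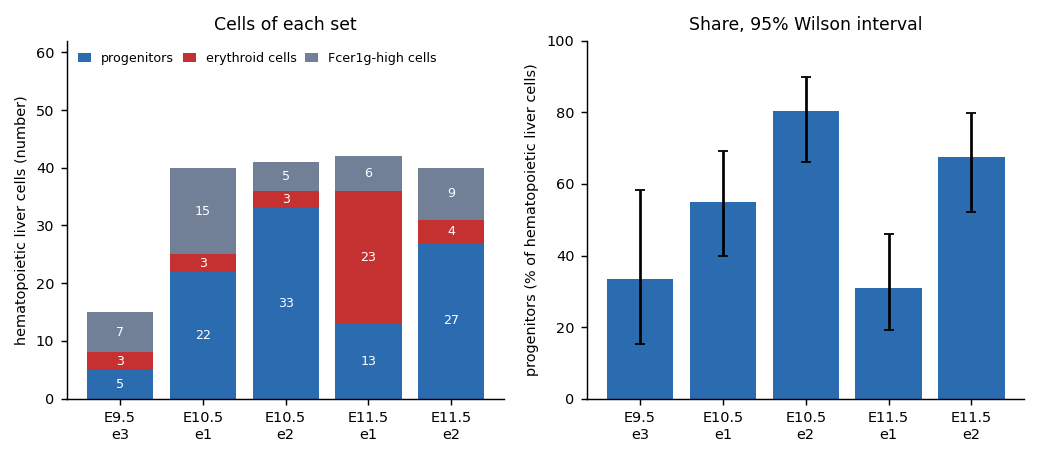
Left, number of hematopoietic liver cells of each set in each embryo (e1 to e3, embryo number). Right, progenitors as a share (%) of these cells, with 95% Wilson intervals. The share ranges from 31.0% in E11.5 embryo 1 to 80.5% in E10.5 embryo 2, and embryos of the same day differ.

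Of the 100 progenitors, 3 had both *Alas2* and *Slc4a1* at 2 or more. The smaller of *Alas2* and *Slc4a1* was 2.84, 2.65, and 2.28 in the progenitors nearest to the limit, and 3.58, 4.11, and 4.12 in the nearest erythroid cells. *Fcer1g* was 2.89, 2.74, and 2.55 just below its limit and 3.30, 3.40, and 3.71 just above, and 13 progenitors had it at 2 or more. Of the progenitors, 2 had *Alas2* alone at 3 or more and 5 had *Slc4a1* alone. With an *Fcer1g* limit of 1, the shares fell to 13.3%, 37.5%, 56.1%, 26.2%, and 57.5% in the same order of embryos.

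Because the rule divides the cells by *Alas2* and *Slc4a1*, differences between progenitors and erythroid cells are given as a description, with no test. A gene was counted when its mean difference over the 5 embryos was at least 1 on the log2 scale, with the same sign in each. Of 10707 genes, 1354 (12.6%) were higher and 115 (1.07%) lower in progenitors, and the median over all genes was 0.29. Erythroid cells were shallower, with a median of 220147 UMIs and 5043.5 genes against 547072 and 7078.5, and after thinning every cell to 100000 UMIs the counts were 1135 and 120.

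The largest differences toward erythroid cells were in globins. The embryonic globins *Hbb-bh1*, *Hba-x*, and *Hbb-y* were lower by 6.32 ± 1.44, 6.17 ± 2.41, and 5.32 ± 2.94 (SD over 5 embryos). The erythroid set held only 3 cells in each embryo up to E10.5, and 23 and 4 at E11.5. *Hbb-bh1* in its single cells ran from 12.51 to 13.39 up to E10.5. It ran from 2.28 to 13.31 in E11.5 embryo 1 and from 8.67 to 13.42 in E11.5 embryo 2. Whether the erythroid cells of all embryos were of the same kind was not tested. *Slc25a37*, the mitochondrial iron importer, had a mean of 1.65 ± 0.63 in progenitors and 5.84 ± 0.32 in erythroid cells. *Hbq1b*, *Mgst3*, *Ube2l6*, *Hemgn*, *Trim10*, *Rhd*, *Fam210b*, and *Acp5* followed. Without the genes of the rule, 18 of 33 genes of erythroid commitment were lower and 1 was higher in progenitors (median −1.14). Of 24 genes of heme synthesis and iron handling 12 were lower and 0 higher (median −0.97). Of all genes, 1.07% were lower and 12.6% higher.

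*Bzw2*, a regulator of translation start, had a mean of 5.02 ± 0.18 in progenitors and 1.74 ± 0.85 in erythroid cells (SD, n = 5 embryos), and *Psmb10*, a subunit of the immunoproteasome, 5.15 ± 0.55 and 1.99 ± 0.77. *Gm15915*, *Vamp5*, *Tagln2*, *Cyba*, and *Nip7*, a factor of ribosome assembly, were also among the largest differences, from 2.85 to 3.48. Of 19 genes of glycolysis 12 were higher in progenitors and 0 lower (median 1.29), as were 6 of 14 genes of interferon response and antigen presentation, with 0 lower (median 0.82). *Ldha*, lactate dehydrogenase, had embryo means from 7.62 to 8.52 in progenitors and from 4.97 to 6.90 in erythroid cells. *Gapdh* had means from 7.89 to 8.10 and from 6.22 to 7.58, without overlap. The part of globin RNA in these differences was not tested.

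*Hba-x* and *Hbb-y* in progenitors lay near their level in cells that do not make globin. *Hba-x* had embryo means from 2.95 to 4.79 in progenitors, from 2.95 to 4.46 in Fcer1g-high cells, and from 3.59 to 3.92 in epithelial liver cells. *Hbb-y* had means from 4.08 to 5.36, from 4.18 to 5.63, and from 4.53 to 5.03 in the same order. In erythroid cells they reached 12.83 and 13.27. The adult globin gene *Hba-a1* and the glycolysis gene *Eno1* were listed at or near 0 in every liver cell set, and no level is drawn from either.

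The Fcer1g-high liver cells shared parts of the progenitor pattern. *Adgrg1* was expressed in 31 of 42 and *Itga2b* in 29 of 42 of them, and *Gata2* in 25. *Klf1* was lower, with embryo means from 1.49 to 2.68 against 5.05 to 5.93 in progenitors, and *Spi1* was higher, from 2.33 to 4.24 against 0.35 to 0.77. Outside the liver the rule found 2 cells in all, against 37 erythroid and 29 Fcer1g-high cells of other organs. Both had *Adgrg1* and *Itga2b*, and neither had *Rhd* or *Cldn13*.

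By the scoring rule of the study, which calls a cell quiescent when its means over a G1/S list of 43 genes and over a G2/M list of 54 are both below 2, 0 of 100 progenitors were quiescent, 61 scored as G1/S, and 39 as G2/M. Erythroid cells gave 2, 16, and 18 of 36, and Fcer1g-high cells 4, 22, and 16 of 42. At 100000 UMIs per cell 96 progenitors remained, of which 0 were quiescent, 62 scored as G1/S, and 34 as G2/M. The embryo means of the G1/S score of progenitors lay between 3.35 and 3.47.

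Day was not used by the rule, so changes between days could be tested. The E10.5 and E11.5 progenitors were compared with 2 embryos on each side, in limma on embryo means of log2(TPM/10 + 1), two-sided, among genes at 1 or more in at least 3 cells, and a gene was called at a Benjamini-Hochberg adjusted p under 0.05 with a difference of at least 1. Of 10353 genes tested, 97 (0.937%) were called, 19 (0.184%) higher and 78 (0.753%) lower at E11.5, and 1532 had an unadjusted p under 0.05. The median difference of all genes was −0.09. One of the 19 was the rule gene *Slc4a1*, which was not counted further. The calls were few in edgeR on summed UMIs, with 2 higher and 7 lower, and without the filter on low genes limma gave 0 and 0.

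The genes that rose between E10.5 and E11.5 included membrane and blood group genes of the red cell. Of 33 genes on the list of erythroid commitment other than *Slc4a1*, 6 rose and 0 fell, namely *Rhd*, *Hemgn*, *Cldn13*, *Trim10*, *Tspo2*, and *Mt2*, against 0.184% of all genes that rose. The list median was 0.73, and 27 of the 33 differences were positive. In 22 of them both E11.5 embryos lay above both E10.5 embryos, as did 15% of all genes tested.

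*Rhd*, at chr4:134864536-134896172 (GRCm38), encodes the Rh blood group protein. Its embryo means were 0.91 at E9.5, 1.73 and 2.62 at E10.5, and 4.82 and 3.79 at E11.5. The days did not overlap, and the difference of 2.13 (SE 0.33) passed the test (adjusted p 0.00267), as it did without any 1 of the 4 embryos. It was expressed in 2 of 5 cells at E9.5, in 14 of 22 and 30 of 33 at E10.5, and in 12 of 13 and 26 of 27 at E11.5.

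*Hemgn*, a nuclear protein of erythroid cells, had means of 0.62 at E9.5, 2.29 and 2.32 at E10.5, and 4.58 and 3.36 at E11.5 (difference 1.67, SE 0.32, adjusted p 0.0103). *Cldn13*, a claudin of the red cell lineage in mice, at chr5:134914250-134915530, had means of 0.00, then 1.42 and 1.81, then 3.34 and 3.12 (1.61, SE 0.28, adjusted p 0.00595). In both the single E9.5 embryo had the lowest mean, and E10.5 and E11.5 did not overlap. *Trim10*, an erythroid ubiquitin ligase, had means of 0.00, 0.88 and 0.53, and 2.52 and 1.72 (1.41, SE 0.32, adjusted p 0.0315).

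*Tspo2*, an erythroid cholesterol-binding protein, had means of 0.90 at E9.5, 1.19 and 1.57 at E10.5, and 3.06 and 2.48 at E11.5 (1.39, SE 0.30, adjusted p 0.0227). The calls of *Trim10* and *Tspo2* were lost when either E10.5 embryo was left out (adjusted p 0.0965 to 0.729), and that of *Cldn13* without E10.5 embryo 1 (1.42, adjusted p 0.311). *Mt2*, whose means are given with the slopes below, had 1.31 (SE 0.23, adjusted p 0.00646) and fell under the size limit without E10.5 embryo 1 (0.90) and without E11.5 embryo 2 (0.98). *Rhd* and *Hemgn* kept theirs in each of these fits, where a lone embryo is assumed to vary like the others. In edgeR none of the 6 genes was called (adjusted p 0.0631 to 0.172), with differences from 1.16 to 2.44.

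Genes of heme synthesis and iron handling mostly had positive differences below the limit. Of 24 genes other than *Alas2*, 0 were called, and 19 were positive with a median of 0.42. In 18 of the 24 both E11.5 embryos lay above both E10.5 embryos, as did 15% of all genes tested. *Klf1* had means of 5.37 at E9.5, 5.05 and 5.12 at E10.5, and 5.93 and 5.68 at E11.5 (0.72, SE 0.19, adjusted p 0.0669), and *Gata1* 3.71, 4.02 and 3.81, and 3.99 and 3.96 (0.06, adjusted p 0.932).

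**Figure D3:**
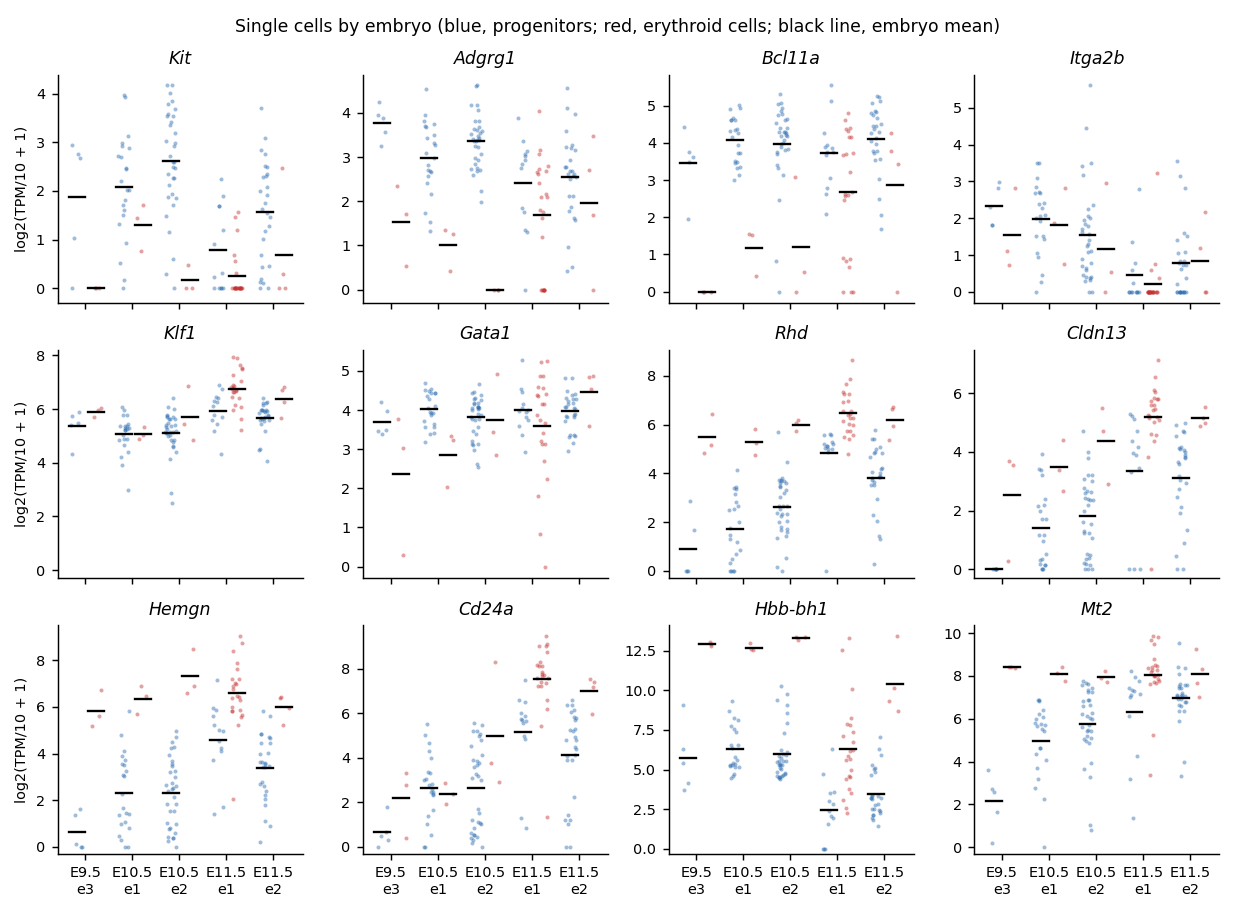
Level of 12 genes, log2(TPM/10 + 1), in single progenitors (blue) and erythroid liver cells (red) of the 5 embryos, with the embryo mean as a black line. Among progenitors *Rhd*, *Cldn13*, *Hemgn*, and *Cd24a* stand higher in both E11.5 embryos than in both E10.5 embryos, *Hbb-bh1* stands lower, and the cells of each embryo spread over several units.

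The sequences before the transcription starts of 3 of these genes are shown, *Rhd* and *Trim10*, which rose, and *Kit*, which did not. These sequences are examples and do not stand for the genes that rose. Each is the 250 bases before the RefSeq start on the strand of the gene (GRCm38.p6), 5′ to 3′, with capitals at every match, on either strand, to AGATAA (bound by GATA factors), TGTGGT (Runx), CAGCTG (E-box), or CCACCC (Klf). *Rhd* lies at chr4:134864286-134864535, plus strand, *Trim10* at chr17:36869324-36869573, plus strand, and the first of 2 starts of *Kit* at chr5:75574737-75574986, plus strand.
Rhd: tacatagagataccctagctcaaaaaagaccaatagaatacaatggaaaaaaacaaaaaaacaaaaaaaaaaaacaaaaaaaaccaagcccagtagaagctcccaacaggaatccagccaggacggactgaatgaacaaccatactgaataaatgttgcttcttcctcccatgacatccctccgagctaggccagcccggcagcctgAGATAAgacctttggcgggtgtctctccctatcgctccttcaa
Trim10: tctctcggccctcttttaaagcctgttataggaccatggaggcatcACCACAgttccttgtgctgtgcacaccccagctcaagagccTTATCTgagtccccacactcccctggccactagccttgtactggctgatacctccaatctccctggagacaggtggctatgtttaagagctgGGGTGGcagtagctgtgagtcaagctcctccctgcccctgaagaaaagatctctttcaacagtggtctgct
Kit: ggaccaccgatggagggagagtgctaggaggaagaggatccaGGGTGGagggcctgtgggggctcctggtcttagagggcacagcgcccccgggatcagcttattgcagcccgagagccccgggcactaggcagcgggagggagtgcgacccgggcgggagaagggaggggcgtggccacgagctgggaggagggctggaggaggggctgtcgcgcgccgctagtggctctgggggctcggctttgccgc
*Rhd* held AGATAA 43 bases before the start. *Trim10* held it on the reverse strand at 163, beside TGTGGT at 204 and CCACCC at 71. *Kit* held CCACCC alone, at 208. Among other called genes looked up, *Mt2*, *Tspo2*, *Rgcc*, *Hemgn*, and *Gfi1b*, which rose, held no AGATAA in these 250 bases. *Jun*, which fell, held it 8 bases before the start, and *Pf4*, which fell too, did not hold it. Over all 32851 promoters of the table, counted on 300 bases, 11.2% held AGATAA, 16.8% TGTGGT, 16.3% CAGCTG, and 31.5% CCACCC. Of the 4 marker genes, with 6 promoters of which those of *Kit* overlap, 0 held AGATAA and 5 held CCACCC. Only 12 of the 19 genes called higher had a promoter in the table, so that a share over the 19 is void. Of the 14 promoters of these 12 genes, 6 held AGATAA on 300 bases. So did 6 of 69 promoters of the genes called lower, and 6.49% of those of all genes tested. These are counts, with no test. A match is a description of letters and not a bound site.

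The remaining genes among the 10 largest rises had varied roles. *Rgcc*, a regulator of the cell cycle, had means of 0.43 at E9.5, 2.59 and 3.01 at E10.5, and 6.03 and 4.66 at E11.5 (2.54, SE 0.32, adjusted p 2.57e-04). *Cd24a*, the heat-stable antigen, had means of 0.66, 2.67 and 2.66, and 5.17 and 4.12 (1.98, SE 0.29, adjusted p 0.00146). *Fabp5*, a fatty acid carrier, had means of 4.66, 4.52 and 4.74, and 6.53 and 6.25 (1.76, SE 0.19, adjusted p 3.51e-05).

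E10.5 and E11.5 did not overlap in any of these 3, and each was called without any 1 of the 4 embryos. *Fabp5* was also called by edgeR (1.89, adjusted p 0.0293). In epithelial liver cells *Fabp5* was more abundant, with means from 8.24 to 8.76. *Ubac1* (1.71), *1190002F15Rik* (1.49), *Acp5* (1.47), and *Mgst3* (1.44) completed the 10, and each of these 4 lost its call without E10.5 embryo 1 (adjusted p 0.0728 to 0.484). *1190002F15Rik* and *Acp5* also lost it without E10.5 embryo 2 (0.0979 and 0.0649), and *Acp5* fell to 0.96 without E11.5 embryo 1.

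Genes of stem and progenitor factors mostly had lower values at E11.5. Of 25 tested, 1 rose, 0 fell, and 22 differences were negative, with a median of −0.29 against −0.09 for all genes. The one that rose was *Gfi1b*, a repressor needed for red cells and megakaryocytes, with means of 3.0 at E9.5, 2.65 and 3.16 at E10.5, and 4.65 and 3.70 at E11.5 (1.27, SE 0.30, adjusted p 0.0354). Its call was lost without E10.5 embryo 1 (1.01, adjusted p 0.698) and without E11.5 embryo 1 (0.80, adjusted p 0.0981). *Myb*, a factor of proliferating progenitors, had means of 2.80, 2.78 and 2.07, and 0.85 and 2.03 (−0.99, adjusted p 0.193). *Lmo2* had 4.92, 4.59 and 4.33, and 3.75 and 3.75 (−0.71, adjusted p 0.14).

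None of the 4 markers passed the test, and all 4 differences were negative. *Kit*, at chr5:75574987-75656722, had means of 1.88 at E9.5, 2.09 and 2.61 at E10.5, and 0.78 and 1.56 at E11.5 (−1.18, SE 0.32, adjusted p 0.0812). *Itga2b* had means of 2.34, 1.97 and 1.56, and 0.44 and 0.79 (−1.15, SE 0.29, adjusted p 0.0585), and was expressed in 5 of 5, 18 of 22, 20 of 33, 2 of 13, and 8 of 27 cells. For both, E10.5 and E11.5 did not overlap, and 32.2% of all genes tested were likewise lower in both E11.5 embryos. With 1 embryo left out, the difference of *Kit* ran from −0.79 (without E11.5 embryo 1) to −1.57 (without E11.5 embryo 2). That of *Itga2b* ran from −0.94 (without E10.5 embryo 1) to −1.36 (without E10.5 embryo 2).

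*Adgrg1* had means of 3.77 at E9.5, 2.98 and 3.35 at E10.5, and 2.41 and 2.55 at E11.5 (−0.69, SE 0.27, adjusted p 0.223), again without overlap. *Bcl11a* had 3.45, 4.07 and 3.98, and 3.72 and 4.10, with overlap (−0.11, 95% interval −0.60 to 0.39). With genes kept at 1 or more in 10% of the cells *Itga2b* passed (adjusted p 0.0433).

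**Figure D4:**
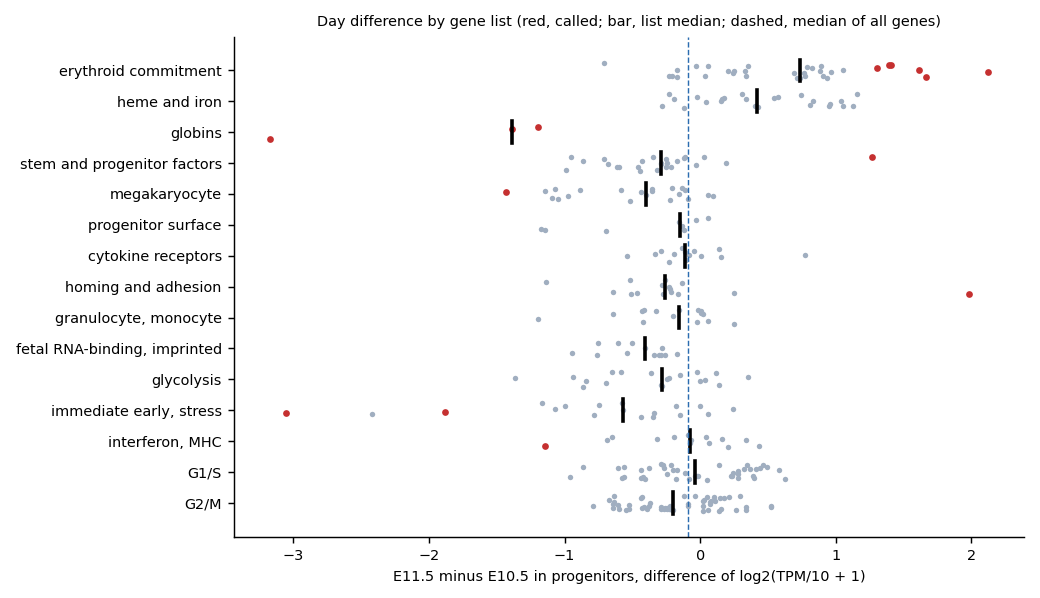
Difference E11.5 minus E10.5 in progenitors on the log2(TPM/10 + 1) scale for the members of 15 gene lists, without the 3 genes of the rule. Each point is a gene (red, called), the bar is the median of the list, and the dashed line is the median of all genes, −0.09. The erythroid list (median 0.73) and the heme list (0.42) lie to the right, and the immediate early and stress list (−0.57) to the left.

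Among receptor and adhesion genes, *Cd24a* was called. Of 14 cytokine receptors tested 0 were called (median −0.11), and *Epor* had means of 3.60 at E9.5, 3.17 and 3.46 at E10.5, and 4.39 and 3.78 at E11.5 (0.77, adjusted p 0.159). Of 15 genes of homing and adhesion 1 rose, *Cd24a*, and 13 were negative (median −0.26). *Itga4*, the alpha chain of VLA-4, was expressed in 94 of 100 progenitors and *Cd44* in 83, with differences of −0.51 and −0.52 that did not pass.

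Among 21 megakaryocyte genes 1 fell, *Pf4*, and 19 were negative (median −0.40). *Pf4* had means of 2.25 at E9.5, 1.57 and 1.85 at E10.5, and 0.03 and 0.52 at E11.5 (−1.44, SE 0.27, adjusted p 0.0103). In the epithelial liver cells of the same embryos it had means of 1.89, 2.72, and 1.80 up to E10.5 and of 0.32 in E11.5 embryo 2, lower at E11.5 there too. Fcer1g-high cells had 5.28, 4.88, 2.25, 0.35, and 4.49. *Plek* had −0.98 (adjusted p 0.0617).

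Fetal RNA-binding and imprinted genes had a common sign but no call. All 13 tested differences were negative, with a median of −0.40, and in 7 of them both E11.5 embryos lay below both E10.5 embryos, as did 32.2% of all genes. *Igf2bp1* had means of 3.39 at E9.5, 3.82 and 3.18 at E10.5, and 2.38 and 2.72 at E11.5 (−0.94, adjusted p 0.107). *Lin28b* had 0.79, 2.01 and 1.83, and 0.75 and 1.57 (−0.76, adjusted p 0.259). Of 19 glycolysis genes 0 were called (median −0.28), and of the cell cycle genes 0 of 43 for G1/S and 0 of 54 for G2/M. None of 15 granulocyte and monocyte, 6 lymphoid, 3 mast cell, 6 endothelial, and 4 mesenchymal genes tested was called. Of 4 macrophage genes *Ctsb*, a lysosomal protease, was called higher (1.17, adjusted p 0.0375) and *Pf4* lower, and of 14 genes of interferon response and antigen presentation *H2-T23* was called lower (−1.15, adjusted p 0.0467). The call of *Ctsb* was lost without E10.5 embryo 1 (adjusted p 0.377), E10.5 embryo 2 (0.192), or E11.5 embryo 1 (difference 0.73, adjusted p 0.0999). That of *H2-T23* was lost without E10.5 embryo 1 (−0.80, under the size limit), E10.5 embryo 2 (adjusted p 0.0545), or E11.5 embryo 2 (−0.88, under the size limit).

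The 78 genes that fell were led by *Hbb-bh1*, at chr7:103841638-103843162, an embryonic beta-like globin. Its means in progenitors were 5.73 at E9.5, 6.30 and 5.99 at E10.5, and 2.46 and 3.49 at E11.5 (−3.17, SE 0.27, adjusted p 2.6e-06), without overlap, and the fall was called in edgeR as well (−2.92, adjusted p 0.00139). The same gene had means of 4.40, 4.67, 6.10, 2.06, and 3.94 in Fcer1g-high cells of the same 5 embryos, and 4.09, 4.48, and 4.48 up to E10.5 and 2.97 in E11.5 embryo 2 in epithelial cells. *Hba-x* (−1.39) and *Hbb-y* (−1.20) were called in limma but not in edgeR, where *Hba-x* had −0.04 (adjusted p 0.986) and *Hbb-y* −1.08 (adjusted p 0.0964). *Hba-x* lost its call without E10.5 embryo 1 (−1.22, adjusted p 0.394), and *Hbb-y* without either E10.5 embryo (0.165 and 0.0708).

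Several of the genes that fell were high in a single E10.5 embryo. *Jun*, an immediate early factor, had means of 0.65 at E9.5, 5.27 in E10.5 embryo 1, 1.60 in E10.5 embryo 2, and 0.33 and 0.44 at E11.5 (−3.05, SE 0.65, adjusted p 0.0216), and −1.22 without E10.5 embryo 1 (adjusted p 0.243). The heat shock gene *Hspa1a* had 0.00, 4.30, 0.60, 0.06, and 0.00, and did not pass (adjusted p 0.0748). In E10.5 embryo 1, *Jun* was also high in Fcer1g-high cells (6.34) and epithelial cells (5.01), and *Hspa1a* in Fcer1g-high cells (5.17). Epithelial cells of E10.5 embryo 2 had 4.58 for *Jun*. The part of this embryo difference in the day result was not tested.

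*Trib3*, *Ddit3*, and *Chac1*, known targets of the factor Atf4, were highest in the other embryo. *Trib3* had means of 0.50 at E9.5, 1.44 and 4.02 at E10.5, and 0.06 and 0.29 at E11.5 (−2.55, SE 0.50, adjusted p 0.0121). *Ddit3* had 0.62, 2.18 and 3.96, and 0.92 and 1.01 (−2.11, SE 0.40, adjusted p 0.0101), and *Chac1* 0.00, 1.35 and 2.61, and 0.00 and 0.00 (−1.98, SE 0.33, adjusted p 0.00417).

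E9.5 embryo 3 lay with E11.5 in these 3 genes, and in E10.5 embryo 2 *Ddit3* was at 3.28 in Fcer1g-high and 3.19 in epithelial cells, and *Trib3* at 3.09 and 2.25. *Ddit3* lost its call without that embryo (−1.22, adjusted p 0.35). *Herpud1*, of the degradation path of the endoplasmic reticulum, fell by 2.23, *Ier2* by 1.88, and *Elf1* by 1.76, and the last 2 lost their calls without E10.5 embryo 1 (both adjusted p 0.165). *Rpl14-ps1* (fell by 1.98) is a pseudogene that can share reads with its parent, and *5430416N02Rik* fell by 1.89.

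Other cells of the same libraries were then read for the same 97 genes. Of the 78 that fell in progenitors, 74 had a negative difference in Fcer1g-high cells (median −1.14 against −1.37 in progenitors), 66 in epithelial cells (−0.91), and 63 in erythroid cells (−0.51). Of the 19 that rose, 15 were positive in Fcer1g-high cells (median 0.61 against 1.44), 18 in epithelial cells (0.46), and 17 in erythroid cells (0.75). Of all 10353 genes tested, 60.9% were negative in Fcer1g-high cells, 48.6% in epithelial cells, and 38.5% in erythroid cells. The shares of positive genes were 37.9%, 47.9%, and 57.3% in the same order. The epithelial value of E11.5 rests on 1 embryo, with 5 cells, since E11.5 embryo 1 had 0 epithelial cells. These are counts, with no test.

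The difference between cell sets was tested as an analysis chosen after the data were seen. The value of a gene in progenitors minus that in another cell set of the same embryo was compared between E10.5 and E11.5. Against Fcer1g-high cells 0 of 11339 genes were called and 604 had an unadjusted p under 0.05, and against erythroid cells 0 of 10628 and 921 in limma. *Rhd* rose by 1.47 more in progenitors than in Fcer1g-high cells (95% interval −0.53 to 3.48, adjusted p 0.902), and *Cldn13* by 1.08 more (−0.29 to 2.44, adjusted p 0.902). *Hbb-bh1* differed by −0.79 (−2.38 to 0.80) and *Jun* by −0.02 (−1.95 to 1.91). These 2 comparisons showed no change between E10.5 and E11.5 to be particular to the progenitors.

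**Figure D5:**
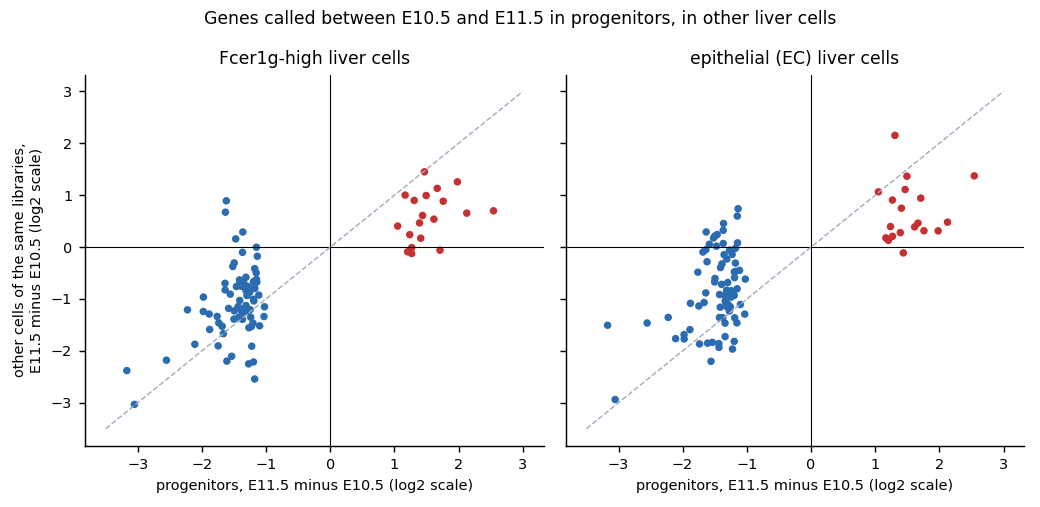
The 97 genes called between E10.5 and E11.5 in progenitors (x axis, difference on the log2 scale; red, higher at E11.5; blue, lower), against the same difference in Fcer1g-high (left) and epithelial (right) liver cells of the same libraries (y axis). The dashed line marks equal differences, and the epithelial E11.5 value comes from 1 embryo. Of the blue points, 74 of 78 on the left and 66 of 78 on the right lie below 0.

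A slope per day over E9.5 to E11.5 was fitted for progenitors and erythroid cells together, with the single E9.5 embryo. Of 10707 genes, 1 (0.00934%) rose with an adjusted p under 0.05 and a slope of at least 0.5 per day, 0 fell, and 892 had an unadjusted p under 0.05. The one was *Mt2*, a metallothionein that binds zinc, with means of 2.14 at E9.5, 4.95 and 5.75 at E10.5, and 6.33 and 6.99 at E11.5 (2.12 per day, SE 0.25, limma adjusted p 0.0188). No embryo of a later day overlapped with one of an earlier day, and in erythroid cells *Mt2* stood between 7.95 and 8.40 in all 5 embryos. Its call was lost without E9.5 embryo 3 (1.31 per day, adjusted p 0.867), without E11.5 embryo 1 (adjusted p 0.231), and without E11.5 embryo 2 (adjusted p 0.236).

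Genes of the erythroid list mostly had positive slopes, none of which passed the adjusted p except that of *Mt2*. *Cldn13* had 1.61 per day (adjusted p 0.0617), *Rhd* 1.76 (0.0728), and *Hemgn* 1.67 (0.0906), and 31 of the 34 list members were positive, with a median of 0.58 per day against −0.04 for all genes. With progenitors alone in the fit, an alternative chosen after seeing the data, 68 genes rose and 115 fell, and edgeR gave 12 and 0.

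In the same fit 54 genes (0.504%) changed with day in erythroid cells, 42 (0.392%) up and 12 (0.112%) down. The difference between the slopes, the test that could set the progenitors apart, called 0 of 10707 genes (0%), with 1040 at an unadjusted p under 0.05. With the embryo as a block, since both cell sets of an embryo came from the same animal, 12 genes passed, 5 with a higher slope in progenitors and 7 with a lower one. The higher ones were *Hbb-y* (3.08 per day), *Mt2* (2.26), *Bpgm* (2.02), *Mt1* (0.95), and *Fth1* (0.74). The lower ones were *Tmsb4x*, *Vamp5*, *Cd47*, *Arl6ip1*, *Lgals1*, *Cdca8*, and *Cenpa* (−2.10 to −1.67). A higher slope need not be a rise in progenitors, where *Hbb-y* had −0.68 per day. In erythroid cells *Hbb-y* differed by −6.12 between E10.5 and E11.5, *Hbb-bh1* by −4.66, and *Hba-x* by −4.59. The erythroid set held 3 cells in each embryo up to E10.5, and 23 and 4 at E11.5. Whether the kind of cell in the erythroid set changed with day was not tested. EdgeR called 11 and 5.

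Cells of an embryo also differed among themselves. Levels were ranked within each embryo and correlated over the 100 cells, for 7408 genes expressed in at least 20, as a description with no test, since the cells share libraries and depth. Among the genes nearest to *Klf1* were *Cldn13* (Spearman rho 0.53), *Rhd* (0.53), *Slc40a1* (0.49), *Nxpe2* (0.48), *Blvrb* (0.47), and *Mllt3* (0.47). The most opposed were *Rac2* (−0.45), *Aprt* (−0.44), *Sh3bgrl3* (−0.43), *Limd2* (−0.43), *Apoe* (−0.43), *Tagln2* (−0.43), *Rsu1* (−0.42), and *Tpm3* (−0.41). *Klf1* itself had 0.26 with the UMI total of the cell, and *Slc40a1*, the iron exporter, 0.44.

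*Kit* had other neighbours. Its nearest genes were *Arhgdib* (0.43), *Fdxr* (0.43), *Ptprcap* (0.42), *Lat* (0.41), *Sptssa* (0.40), *Pex13* (0.40), *Vim* (0.40), and *Wls* (0.39). Among the most opposed were *Prdx2*, an antioxidant enzyme abundant in red cells (−0.45), *Znhit1* (−0.42), *Acp1* (−0.37), *Hemgn* (−0.35), *Mgst3* (−0.34), *Ctsd* (−0.34), and *Tspan33* (−0.33). *Kit* and *Cldn13* were nevertheless expressed together in 50 cells, *Kit* alone in 26, and *Cldn13* alone in 18.

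*Gata2*, expressed in 21 cells, was nearest to *Iqgap2* (0.42), *Lrrfip1* (0.40), *Lmo2* (0.39), *Nfe2* (0.39), *Krcc1* (0.39), *Hdgf* (0.38), *Lcp1* (0.38), and *Ybx1* (0.37), with *Fech*, the last enzyme of heme synthesis, at −0.34. It was found with *Kit* in 18 of its 21 cells and with *Cldn13* in 8. *Pf4* was nearest to *Apoa2* (0.45) and *Itih2* (0.45), both made by hepatoblasts, ahead of *Sec63*, *Maged1*, *Nisch*, *Lrmp*, *Glud1*, and *Rgs18* (0.43 to 0.39). *Mpo* was expressed in fewer than 20 cells, so that no genes were ranked against it.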

How the data were processed

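Single cells were sequenced with a modified STRT protocol with UMIs. Per the study's methods, the authors aligned reads to mm10 with TopHat (version 2.0.12), counted uniquely mapped reads with HTSeq, and removed duplicated UMIs. The deposited values, called TPM, are UMI counts of a gene scaled to 1000000 per cell (CPM), and every value came out as whole UMIs (tolerance 0.05). Cell groups came from the study's cell annotation. Columns with identical values, 14 pairs, were counted once. No doublet caller was run, since cells were picked by hand. The members and gene lists were chosen with earlier results of these data known.

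Values were set on the log2(TPM/10 + 1) scale and averaged per embryo. Genes that reached 1 in 3 or more cells were fitted with limma 3.58.1 (R 4.3.3), with Benjamini-Hochberg adjustment over all genes tested. Summed UMIs were fitted with edgeR 4.0.16 as an alternative. The fits were also run on the real cells shuffled across embryos, with chosen genes thinned to a known trend. Shuffling removes differences between embryos, so that this check does not measure the error of the day comparisons. Nothing in the labels says that embryos came from separate litters, so p-values measure the spread between these embryos. Genes were named by rule: the 10 largest called differences in each direction between days, the 15 largest in each direction between cell sets, the 8 nearest genes in each correlation, and the called members of the lists. Some genes that these rules name are not reported here. Progenitors and erythroid cells of the same number came from the same embryo, which is the source of the pairing, and their deviations from the mean of the day correlated at 0.133 (E10.5) and 0.143 (E11.5).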

Additional observations from a re-analysis of the deposited data

Results flagged for a closer look

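Liver cells that the study left without a major group gave a signal outside the comparisons above. *Klf1* was at 3 or more in 7 of 12 such cells (58.3%, 95% Wilson interval 32.0 to 80.7), against 1 of 47 epithelial liver cells (2.13%, 0.377 to 11.1). These shares cannot be compared, since the ungrouped cells had a median of 10221.5 UMIs against 651595 in the epithelial cells, and 2 of the 7 reached the limit on 1 or 2 UMIs. Summed over cells, *Klf1* took 75 of 157931 UMIs in the ungrouped cells and 129 of 31483460 in the epithelial cells, or 475 and 4.10 per 1000000 UMIs. Of the ungrouped cells, 0 of 12 expressed at least 3 of the 4 markers.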

How the results depend on the processing

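Counts of calls depended on the settings. For E11.5 against E10.5 (19 higher and 78 lower), limits of 2 for *Alas2* and *Slc4a1* gave 8 and 40, edgeR 2 and 7, log2(TPM + 1) 10 and 34, and no gene filter 0 and 0. Leaving out 1 embryo gave 5 to 95 higher and 29 to 580 lower, with 5 and 29 without E10.5 embryo 1 and 95 and 580 without E11.5 embryo 2. For the slope in progenitors (1 and 0), at least 5 cells per embryo gave 42 and 74, edgeR 12 higher, genes in 10% of the cells 5 and 6, log2(TPM + 1) 4 higher, and thinning 4 higher. Progenitors alone, chosen after seeing the data, gave 68 and 115, and leaving out 1 embryo 0 to 5 and 0 to 13. For the slope in erythroid cells (42 and 12), limits of 2 gave 20 lower, the 10% filter 20 lower, no filter 7 and 0, thinning 133 and 70, and leaving out 1 embryo 0 to 43 and 0 to 24. For the difference of slopes (0 and 0), edgeR gave 11 and 5, the 10% filter 1 and 1, log2(TPM + 1) 1 lower, the replicate block 5 and 7, thinning 2 and 1, and leaving out 1 embryo 0 to 1 higher. Progenitors minus erythroid cells (1354 and 115) gave 3033 and 179 on log2(TPM + 1). An *Fcer1g* limit of 1 gave shares of 13.3%, 37.5%, and 56.1% up to E10.5. With at least 1 UMI as the limit *Gata2* was found in 46 and *Mpo* in 60 cells, and *Mpo* in 20 of 96 thinned cells. *Bcl11a* changed sign when 1 embryo was left out, with −0.30 to 0.077 between E10.5 and E11.5 (above 0 without E11.5 embryo 1) and −0.11 to 0.32 per day (below 0 without E9.5 embryo 3). The causes were not tested. Of the other values followed between E10.5 and E11.5, 366 kept their direction and side of the threshold, 113 no longer passed it, and 12 newly passed. Keeping identical columns was also chosen after seeing the data.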
